A study of Homo sapiens with 6 samples.

Results

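The autophagy and lysosome genes described here are 43 genes of the self-digestion pathway, picked by their symbols out of the 38637 genes in the expression table. They are the transcription factors TFEB and TFE3, the ULK and PI3K complexes, the ATG9, ATG2 and WIPI proteins, the conjugation enzymes, the ATG8 proteins, 5 cargo receptors, 3 lysosomal membrane proteins and 8 lysosomal hydrolases. HCCLM3-SR is a sorafenib-resistant line made from HCCLM3, a metastatic human hepatocellular carcinoma (HCC) line, by raising the dose of the multikinase inhibitor sorafenib in steps. All 6 libraries came from this line under 5 µM sorafenib, so neither drug-free cells nor the parental line stood beside them. Knockdown cells (3 libraries) received siRNA against cDCBLD2, a circular RNA of the DCBLD2 gene, and control cells (3 libraries) received control siRNA, each for 3 days. The comparison asks which mRNAs differ when the circular RNA is reduced. Levels are given in TPM, the share of a library's transcripts that a gene accounts for, corrected for gene length and scaled to a sum of 1000000, so levels can be compared between genes.

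In macroautophagy the ULK kinase complex starts a cup of membrane, the class III PI3K complex marks it with a lipid, and the ATG conjugation enzymes fix ATG8 proteins to it. Cargo receptors bind both the cargo and the ATG8 proteins, and the closed vesicle fuses with a lysosome, where acid hydrolases digest the content. TFEB and TFE3 are transcription factors that MTORC1 holds in the cytoplasm in fed cells. In the nucleus they bind the CLEAR letters, a palindrome around CACGTG, in front of many lysosomal genes.

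The RefSeq promoters (GRCh38.p14, 250 bases before to 50 after each start) were searched for 3 nested runs, each of which reads the same on both strands. They were CACGTG, TCACGTGA, and the full CLEAR palindrome, which is TCACGTGA with a further G before it and a further C after it. Entries existed for 38 members, and RB1CC1, UVRAG, LAMP2, CTSB and HEXA had none. CACGTG was found for 8 of the 38 members, or 21.1%, against 8.78% of all genes with a promoter and 10.9% of protein-coding genes. The share in the other genes of the pathway was 33.3% for the vacuolar ATPase, 27.3% for other membrane and sorting genes, 23.1% for MTORC1 and AMPK control, 16.7% for further selective receptors, 16% for other hydrolases and 15.4% for other autophagy machinery. By role, it lay in front of 4 of 6 hydrolases and both lysosomal membrane members with an entry, ATG3 of the conjugation enzymes and ATG14 of the PI3K complex, while ULK1, TFEB, TFE3 and the ATG8 and receptor genes had no match in this window. The longer TCACGTGA was found for 5 members (13.2%, against 1.18% of all genes), and the full palindrome for GAA and MCOLN1 (5.26%, against 0.421%). The windows of 30 bases below show a single match for each of the 4 hydrolases and the 2 membrane proteins that hold these letters. LAMP1, GAA, CTSA and MCOLN1 hold further matches that are not shown. Among them is another full palindrome in GAA, 31 bases before the start. Capitals mark CACGTG, and each window is written 5′ to 3′ on the strand of the gene.
GAA (chr17:80101493-80101522, plus strand, 76 bases before the start): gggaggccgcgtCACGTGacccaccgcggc
MCOLN1 (chr19:7522598-7522627, plus strand, 14 bases before the start): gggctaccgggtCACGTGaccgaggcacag
CTSA (chr20:45891298-45891327, plus strand, 25 bases before the start): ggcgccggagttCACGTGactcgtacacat
LAMP1 (chr13:113297199-113297228, plus strand, 28 bases before the start): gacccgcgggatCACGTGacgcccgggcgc
CTSD (chr11:1763957-1763986, minus strand, 47 bases before the start): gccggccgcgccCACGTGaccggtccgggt
NEU1 (chr6:31862930-31862959, minus strand, 126 bases before the start): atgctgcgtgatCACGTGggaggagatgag
A match of letters is a description of the sequence and not a measured binding site.

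The libraries held between 17487649 and 23057377 reads recovered from the TPM values, which are lower bounds on what the authors counted. Epithelial keratins were abundant (KRT8 at 2999 to 4413 TPM), whereas the hepatocyte genes ALB, APOA1, APOB, TTR and SERPINA1 stayed at or under 4.26 TPM in all 6 libraries. None of these hepatocyte genes was at 0, and APOB (0.902 to 4.26 TPM) and SERPINA1 (1.30 to 3.00 TPM) lay near the levels of the scarcer members. The epithelial gene EPCAM (0.0686 to 0.323 TPM) and the liver tumour genes GPC3 (0 to 0.135 TPM) and AFP (0.926 to 2.08 TPM) were low too. Among the blood and immune markers, the T-cell gene CD3E was at 0 in all 6 libraries and the leukocyte gene PTPRC under 0.412 TPM. The others of that list were detected, with CD68 at 89.99 to 125.1 TPM, LYZ at 2.85 to 5.81 TPM and CD79A at 0.68 to 1.64 TPM. Of the endothelial markers, PECAM1 was at 3.63 to 5.64 TPM, and CDH5 and VWF stayed under 0.111 TPM. The source of these transcripts was not tested. The 4 fibroblast markers summed to 3.76 to 14.5 TPM in knockdown libraries and 1.43 to 3.49 TPM in controls. Among them COL1A2 was at 0 in every control and above 0 in a single knockdown library (2.67 TPM). The part of these markers in the results below was not tested. In bulk RNA fewer cells of a kind and less RNA per cell cannot be told apart. DCBLD2, the host gene (chr3:98795941-98901689), measured 38.5 ± 17.2 TPM (SD, n = 3) in knockdown and 56.9 ± 12.7 TPM in control libraries, groups that overlapped, with a log2 fold change of -0.61 (SE 0.31, adjusted p = 0.253, or 0.0139 with the replicate block). With the trend with GC content taken out of every library, called the GC correction here, it was -0.28, and the blocked call was lost (adjusted p = 0.0503). A gene total does not tell the circle from the linear mRNA. The study itself reported no clear uniform change of DCBLD2 mRNA or protein after this knockdown in its 3 resistant lines. The knockdown and control libraries with the same number deviated together from their group means, so each result is also given with the replicate number as a block. The labels do not say what same-numbered libraries share.

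The members moved in both directions after knockdown. Without the block, limma called 1 of the 42 members tested higher (ULK1) and 0 lower, beside 0.25% and 0.629% of the 13980 genes tested, while 14 members and 3654 genes had an unadjusted p under 0.05. Once the replicate block was added, 10 members were called higher and 10 lower, beside 9.94% and 25% of all genes. In neither of these fits was a member past both thresholds of the study. These are a log2 fold change over 1 in size and an adjusted p under 0.05. Of all genes, 0.129% passed both without the block and 1.21% with it. In the simulations described below, 13.5% and 16.5% of the calls of the blocked fit were false. The 10 higher were ULK1, ATG101, TFEB, LAMP1, CTSA, CTSB, CTSD, HEXA, GAA and NEU1, of which 7 are lysosomal proteins. The 10 lower were RB1CC1, PIK3C3, PIK3R4, UVRAG, ATG3, NBR1, TAX1BP1, CALCOCO2, LAMP2 and CTSL, of which 8 are among the 29 autophagy machinery members tested, a share near the 25% of all genes.

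Read without any model, 13 members had every knockdown library above every control library, beside 9.58% of all genes, and 7 had every one below, beside 22.3%. In 20 members all 3 same-numbered pairs were higher (22% of all genes) and in 13 all were lower (43.7%). The log2 fold change was positive in 26 of 42 members, against 37.6% of all genes, and its median was 0.06 over the members and -0.08 over all genes. Summed over the 43 members, the level was 7022, 7384 and 7717 TPM in the knockdown libraries and 5912, 6566 and 6505 TPM in the controls. The sums did not overlap, and CTSD and SQSTM1 made up most of them.

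**Figure D1:**
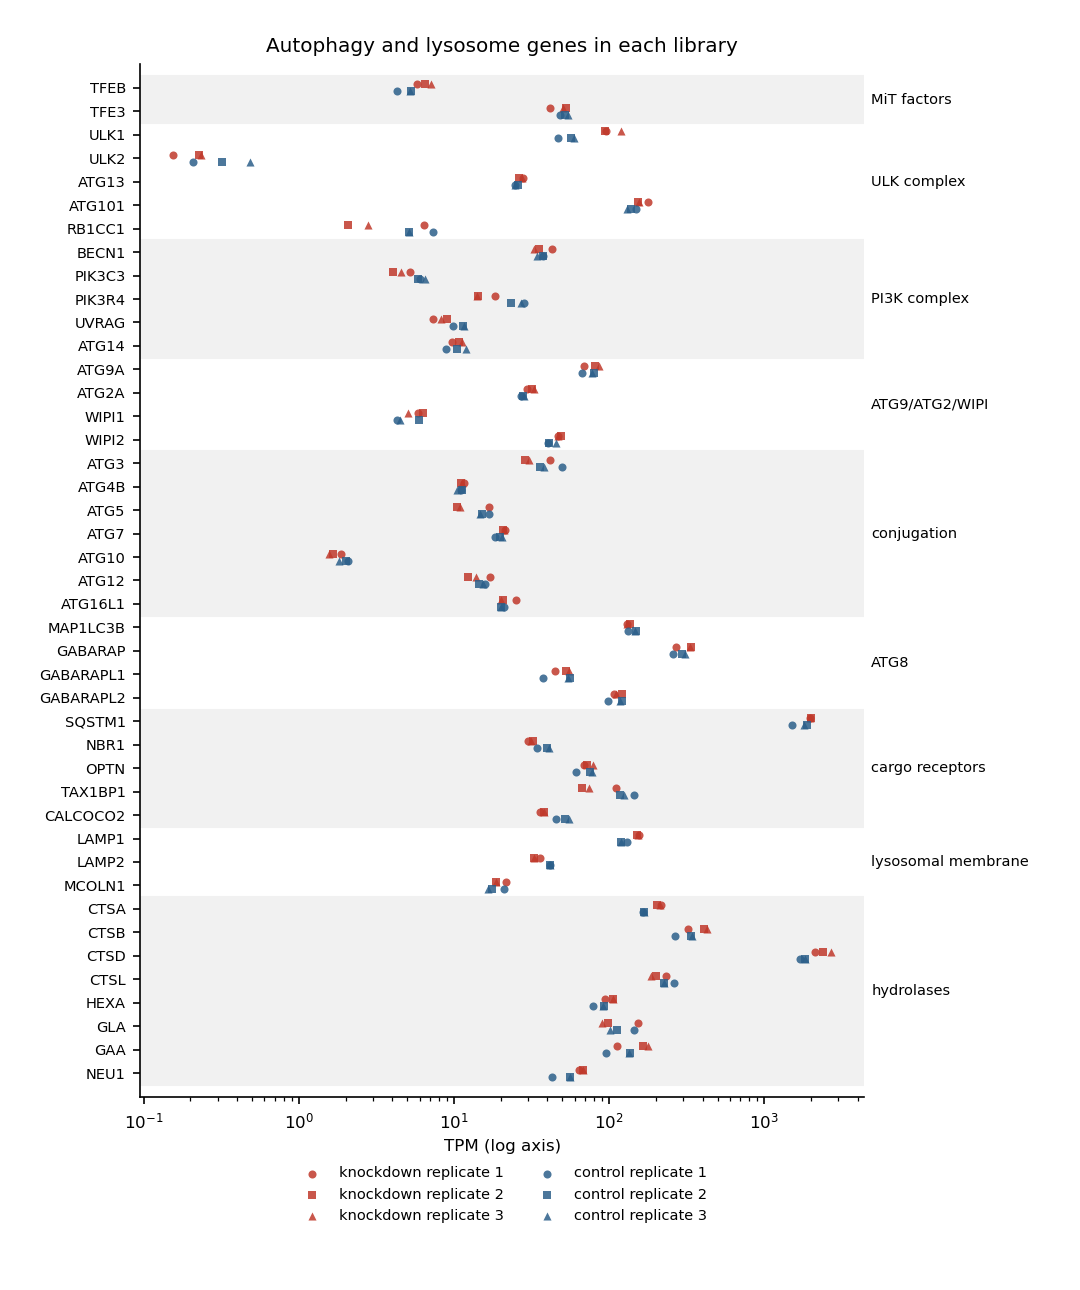
Level of each of the 43 members in each library, in TPM on a log axis, with knockdown libraries in red and control libraries in blue, a marker shape for each replicate number, and members grouped by role. Levels run from 0.155 TPM (ULK2) to 2697 TPM (CTSD), and the colours separate clearly in few members, among them ULK1 and PIK3R4.

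ULK1, the kinase that starts autophagy, had the largest change of the members. It lies at chr12:131894651-131923167 (GRCh38, GENCODE release 29) and was measured at 94.8, 93.8 and 118 TPM in the 3 knockdown libraries, listed here and below in the order of their replicate numbers, against 46.6, 56.5 and 59.8 TPM in the controls. All knockdown libraries were well above all controls. The mean was 102 ± 13.9 TPM in knockdown and 54.3 ± 6.88 TPM in control libraries (SD, n = 3), a ratio of 1.89. The log2 fold change was 0.90 (SE 0.13, adjusted p = 0.0451, or 0.00436 with the replicate block), rank 130 from the top among all genes tested. The adjusted p was under 0.05 in 9 of 16 alternatives and ran from 6.48e-05 to 0.222, the highest without control replicate 3. Leaving out any library other than knockdown replicate 1 ended the call without the block, with log2 fold changes between 0.79 and 0.97.

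The other subunits of the ULK complex did not follow ULK1 in size. ATG101, which stabilises the complex together with ATG13, was at 179, 153 and 156 TPM in knockdown and 148, 139 and 130 TPM in control libraries, a log2 fold change of 0.22 called with the replicate block (adjusted p = 0.0179) and not without it (0.173), nor with the block after GC correction (0.131). ATG13, the adaptor subunit, was at 26.1 to 28.0 TPM against 24.6 to 25.8 TPM and was called in neither fit. RB1CC1 (FIP200), the scaffold, went the other way. It was at 6.36, 2.08 and 2.79 TPM in knockdown and 7.32, 5.11 and 5.14 TPM in control libraries. Both libraries numbered 1 were the highest of their group, and knockdown replicate 1 overlapped with the controls. Its log2 fold change of -0.62 (SE 0.33, adjusted p = 0.282) was called lower with the block (SE 0.17, adjusted p = 0.0399) but not after GC correction with the block (-0.20, adjusted p = 0.265). ULK2, the paralog of ULK1, was near the limit of detection at 0.155 to 0.483 TPM, 10 to 36 recovered reads a library. Its mean was under the minimum of 1 TPM, so it was not tested in these fits.

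TFEB and TFE3 are the MiT-family regulators of the lysosomal genes, and the difference between their changes was not tested. TFEB (chr6:41683978-41736259) was at 5.73, 6.49 and 7.14 TPM in knockdown and 4.27, 5.29 and 5.20 TPM in control libraries. Every knockdown library was above every control, by a log2 fold change of 0.33 (SE 0.13, adjusted p = 0.173, or 0.0373 with the replicate block). The blocked call was lost after GC correction (0.24, adjusted p = 0.0678). TFE3 was the more abundant of the pair, at 41.8, 52.8 and 50.2 TPM in knockdown and 48.0, 52.2 and 54.1 TPM in control libraries. The TFE3 groups overlapped, and its log2 fold change of -0.09 passed neither test (adjusted p = 0.599, or 0.255 with the block), although it was called lower after GC correction with the block (-0.21, adjusted p = 0.0392). These are mRNA levels, and the place of the proteins in the cell was not measured.

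In the class III PI3K complex, which makes the lipid that marks autophagic membrane, 3 of 5 members were called lower with the replicate block, beside 25% of all genes, and 0 of 5 without it. The balance was another with the GC trend removed, where the fit with the block called 2 higher and 2 lower (11.9% and 13.7% of all genes) and moved the median log2 fold change from -0.35 to 0.07. PIK3R4 (VPS15), the regulatory subunit that anchors the kinase, changed most. It was at 18.3, 14.3 and 14.0 TPM in knockdown and 28.3, 23.4 and 27.2 TPM in control libraries, with a wide gap between the groups. The mean was 15.6 ± 2.37 TPM against 26.3 ± 2.54 TPM (SD, n = 3), a log2 fold change of -0.73 (SE 0.13, adjusted p = 0.0555, or 0.0054 with the block), with adjusted p between 0.000311 and 0.225 over 16 alternatives. UVRAG, which steers the complex to endosomes, was at 7.29, 9.05 and 8.21 TPM in knockdown and 9.85, 11.5 and 11.5 TPM in control libraries. No library overlapped, and its log2 fold change of -0.38 was called with the block (adjusted p = 0.0166) and not without it (0.117). PIK3C3 (VPS34), the catalytic subunit, was at 4.07 to 5.23 TPM against 5.88 to 6.49 TPM, a log2 fold change of -0.35 (adjusted p = 0.139, or 0.0471 with the block). After GC correction PIK3C3 was at 0.07 and not called (adjusted p = 0.541 with the block). BECN1 and ATG14, of which ATG14 directs the complex to autophagy, had log2 fold changes of 0.02 each and overlapping groups. They were the 2 called higher after GC correction with the block (0.23 and 0.25).

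Among the genes that supply lipid to the growing membrane, none was called in either fit, although all 4 log2 fold changes were positive. WIPI1, which reads the PI3K lipid, had the largest at 0.20, from 5.89, 6.34 and 5.05 TPM in knockdown and 4.28, 5.98 and 4.48 TPM in control libraries, groups that overlapped. ATG2A, the lipid transfer protein, was at 29.4 to 32.7 TPM against 26.9 to 28.2 TPM with no overlap. Its adjusted p was 0.194, or 0.0517 with the block.

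Among the conjugation enzymes, 1 of 7 was called lower and 0 higher with the replicate block, beside 25% and 9.94% of all genes. It was ATG3, the enzyme that hands ATG8 proteins to the membrane lipid, at 28.8 to 41.8 TPM in knockdown and 35.9 to 49.3 TPM in control libraries. The log2 fold change of ATG3 was -0.29 (adjusted p = 0.352, or 0.0128 with the block). After GC correction with the block ATG3 was at 0.10 and not called (adjusted p = 0.213), and ATG12, the ubiquitin-like partner of ATG5, was called higher in its place (0.34, adjusted p = 0.0128). The groups of ATG3 overlapped, because both libraries numbered 1 were high, while each knockdown library was below the control of the same number. ATG5, which joins ATG12 in the ligase, had the most negative value at -0.30, from 16.9, 10.5 and 10.9 TPM in knockdown and 16.9, 15.1 and 14.8 TPM in control libraries. The 2 libraries numbered 1 were equal to 3 digits and the other knockdown libraries were lower, and the change was called in neither fit (adjusted p = 0.343, or 0.0897 with the block). Of the ATG8 proteins, which coat the membrane, 0 of 4 were called. GABARAP was at 270, 336 and 334 TPM in knockdown and 257, 295 and 309 TPM in control libraries, and MAP1LC3B (LC3B) at 130 to 136 TPM against 133 to 149 TPM. Their log2 fold changes were 0.12 and -0.12 and the groups overlapped. MAP1LC3B and the GABARAP genes have close copies in the genome, and how shared reads were divided is not given in the sources used here.

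Of the 5 cargo receptors, 3 were called lower and 0 higher with the replicate block, beside 25% and 9.94% of all genes, and 2 lower and 1 higher after GC correction with the block. SQSTM1 (p62), a receptor for ubiquitinated proteins, was the most abundant autophagy gene and rank 68 of all genes tested by level. It was at 1960, 1992 and 1979 TPM in knockdown and 1504, 1886 and 1803 TPM in control libraries. The groups did not overlap, but 2 controls came close, and the log2 fold change of 0.20 passed neither test (adjusted p = 0.245, or 0.069 with the replicate block). TAX1BP1 and CALCOCO2 (NDP52), which bind ubiquitin on bacteria and damaged mitochondria, were lower. TAX1BP1 (chr7:27739331-27844564) was at 111, 66.7 and 74.6 TPM in knockdown and 145, 117 and 125 TPM in control libraries. Knockdown replicate 1 lay just under the lowest control and the other knockdown libraries far below. The log2 fold change was -0.64 (SE 0.19, adjusted p = 0.112, or 0.00771 with the block), and over 16 alternatives the adjusted p ran from 0.000775 to 0.32. CALCOCO2 (chr17:48830988-48866522) was tight within groups, at 35.9, 37.8 and 37.8 TPM in knockdown and 45.6, 52.0 and 54.8 TPM in control libraries, a log2 fold change of -0.44 (SE 0.09, adjusted p = 0.0629, or 0.0069 with the block). NBR1 was likewise lower in every knockdown library (29.8 to 32.1 TPM against 34.1 to 41.1 TPM, log2 fold change -0.29). Its adjusted p was 0.122, or 0.0182 with the block, and the blocked call was lost after GC correction (-0.07). The groups of OPTN overlapped.

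**Figure D2:**
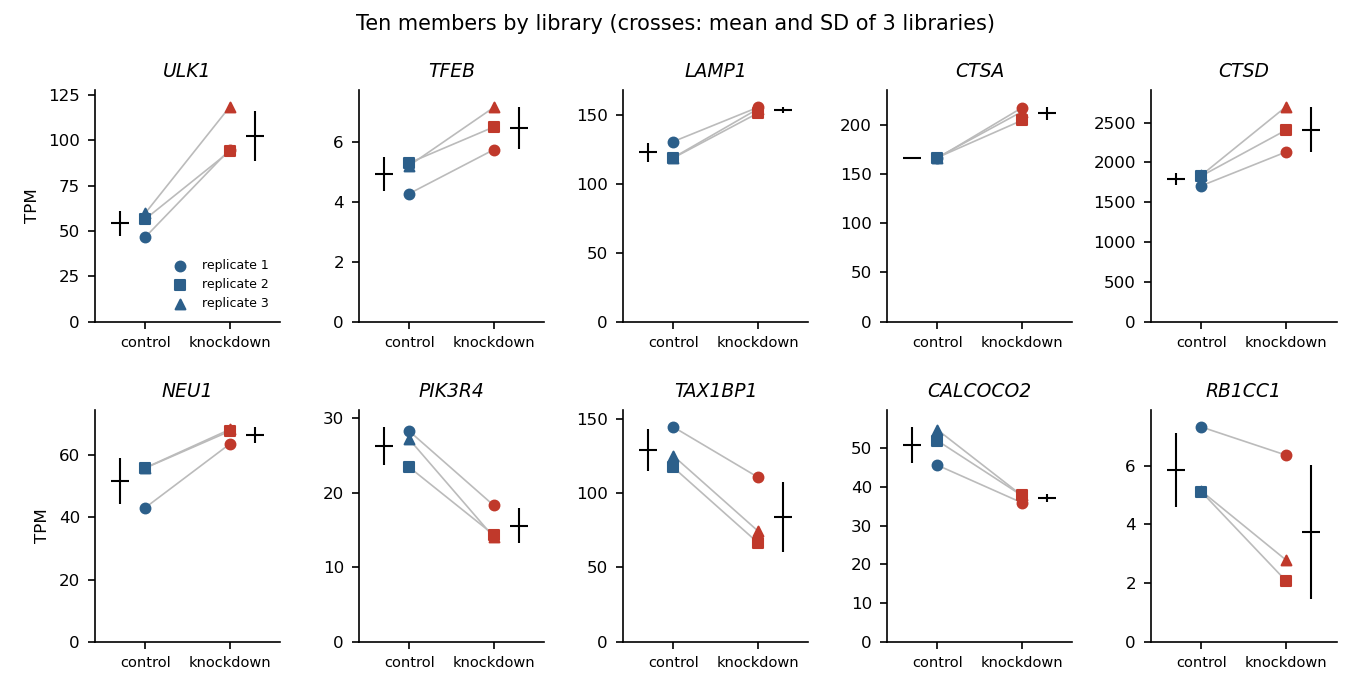
Level in TPM, on axes that start at 0, of 10 members in control (blue) and knockdown (red) libraries, with grey lines joining libraries of the same replicate number and black crosses for the mean and SD of 3 libraries. All 3 lines rise for ULK1, TFEB, LAMP1, CTSA, CTSD and NEU1 and fall for PIK3R4, TAX1BP1, CALCOCO2 and RB1CC1, and only for RB1CC1 do the groups overlap.

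The lysosomal hydrolases were the group with the most members higher. With the replicate block 6 of 8 were called higher and 1 lower, beside 9.94% and 25% of all genes. Without it 0 and 0 were called, and 3 of 8 had an unadjusted p under 0.05, beside 3654 of 13980 genes. The median log2 fold change of the hydrolases was 0.30, and it was 0.27, 0.28 and 0.31 in same-numbered pairs 1, 2 and 3. Summed, the 8 hydrolases measured 3325, 3654 and 3969 TPM in knockdown and 2763, 2952 and 2953 TPM in control libraries, with no overlap. CTSD (cathepsin D), the main aspartic protease of the lysosome (chr11:1752752-1764573), was at 2130, 2404 and 2697 TPM in knockdown and 1706, 1829 and 1837 TPM in control libraries. It was rank 57 of all genes by level. Its mean was 2410 ± 284 TPM against 1791 ± 73.7 TPM (SD, n = 3), a log2 fold change of 0.42 (SE 0.10, adjusted p = 0.0788, or 0.00681 with the block).

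CTSA and NEU1, a protease and a sialidase that work as a complex in the lysosome, were both higher. CTSA (chr20:45890144-45898820) was at 217, 204 and 213 TPM in knockdown and 166, 167 and 167 TPM in control libraries. The controls were almost equal, and the log2 fold change was 0.34 (SE 0.06, adjusted p = 0.053, or 0.00599 with the replicate block). NEU1 (chr6:31857659-31862906) was at 63.6, 67.7 and 68.3 TPM in knockdown and 43.1, 55.9 and 55.9 TPM in control libraries, a log2 fold change of 0.37 (SE 0.11, adjusted p = 0.117, or 0.0147 with the block). Control replicate 1 was the lowest by a wide margin. Without it the log2 fold change of NEU1 was 0.25, the lowest of its alternatives. The cysteine protease CTSB was at 322, 408 and 430 TPM in knockdown and 266, 335 and 340 TPM in control libraries. These groups overlapped, since both libraries numbered 1 were low, and each knockdown library was above the control of its number (log2 fold change 0.30, adjusted p = 0.238, or 0.00657 with the block). GAA, which degrades glycogen, showed the same arrangement at 112 to 178 TPM against 96.1 to 136 TPM (log2 fold change 0.30, adjusted p = 0.394, or 0.0114 with the block). HEXA, which degrades gangliosides, was at 94.0 to 106 TPM against 78.1 to 93.1 TPM without overlap (log2 fold change 0.22, adjusted p = 0.202, or 0.0169 with the block). The exceptions were CTSL and GLA. CTSL, a cysteine protease, was at 186 to 234 TPM in knockdown and 225 to 263 TPM in control libraries. It was called lower with the block (log2 fold change -0.20, adjusted p = 0.0199) and not without it (0.278). GLA, at 89.7 to 153 TPM against 101 to 145 TPM, was called in neither fit.

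The lysosomal membrane proteins LAMP1 and LAMP2, which are close relatives and coat the inner face of the membrane, had log2 fold changes of opposite sign. LAMP1 was at 155, 151 and 154 TPM in knockdown and 131, 119 and 119 TPM in control libraries. The mean was 154 ± 2.15 TPM against 123 ± 6.78 TPM (SD, n = 3), a log2 fold change of 0.32 (SE 0.06, adjusted p = 0.0624, or 0.00763 with the replicate block). LAMP2, of which a splice form is the receptor of chaperone-mediated autophagy, was at 32.7 to 36.0 TPM in knockdown and 41.4 to 41.8 TPM in control libraries, with no overlap and a log2 fold change of -0.29 (adjusted p = 0.0826, or 0.0142 with the block). The negative sign of LAMP2 did not hold once GC content was taken into account (0.13). MCOLN1, a calcium channel of the lysosome, was at 18.6 to 21.6 TPM against 16.5 to 20.8 TPM and was called in neither fit. Of the 11 lysosomal members together, 7 were called higher and 2 lower with the block, and of the 29 machinery members tested, 2 higher and 8 lower, beside 9.94% and 25% of all genes. The machinery counts were thus near those shares, and after GC correction with the block they were 7 higher and 4 lower, while the lysosomal counts were 7 and 1 (11.9% and 13.7% of all genes).

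**Figure D3:**
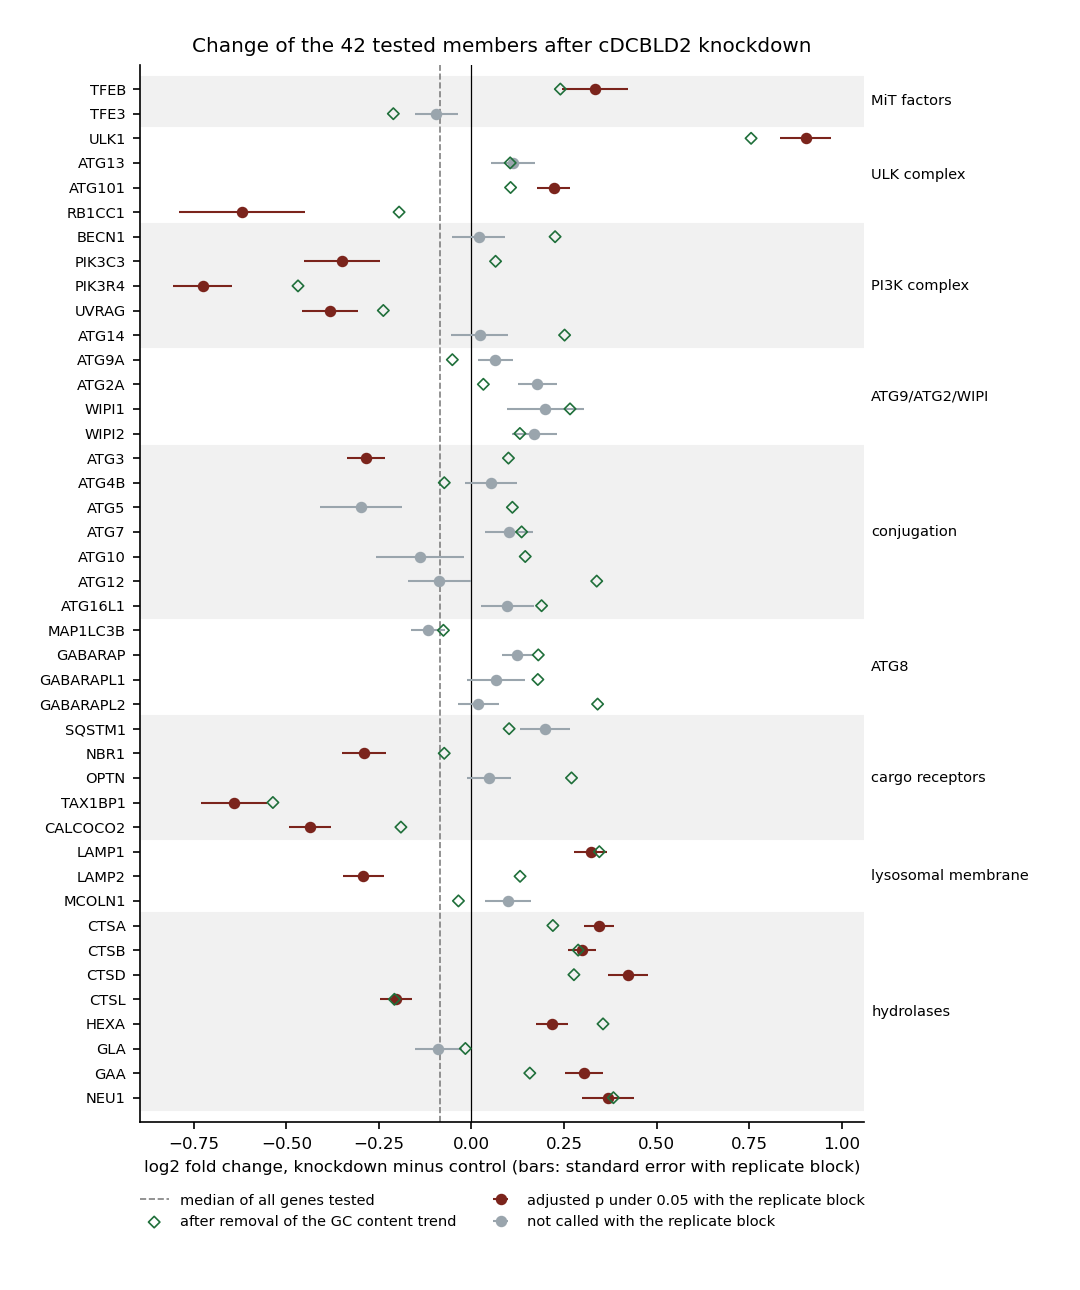
Log2 fold change of the 42 members tested (circles, with bars for the standard error from the fit with the replicate block), in dark red where the adjusted p was under 0.05 with the block, and after removal of the trend with GC content (open green diamonds). ULK1 at 0.90 and PIK3R4 at -0.73 are the ends of the range, the hydrolases cluster near 0.30, and the diamonds of LAMP2, PIK3C3 and ATG3 lie on the other side of 0 from their circles.

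The direction of a member went with the base composition of its transcript. Over the 42 members tested, Spearman's rho between the log2 fold change and the GC content of the longest transcript was 0.72, and over 12953 genes it was 0.64. These are descriptions across genes that share the same 6 libraries. Median GC content was 58.7% (47.0 to 64.2%) in the 10 members called higher with the replicate block and 44.0% (37.6 to 52.5%) in the 10 called lower. With the GC content trend taken out of every library, limma called 0 members in either direction without the block (0.0154% of genes each way). An unadjusted p under 0.05 was found for 12 members and 2738 of 12953 genes. The log2 fold change of ULK1 was 0.76 (adjusted p = 0.0524). With the block as well, 14 members were called higher and 6 lower, beside 11.9% and 13.7% of genes. Of the 10 members called higher with the block alone, 8 were still called higher, all except TFEB (0.24, adjusted p = 0.0678) and ATG101 (0.11, adjusted p = 0.131). Of the 10 called lower, 5 were still called lower, namely PIK3R4 (-0.47), UVRAG (-0.24), TAX1BP1 (-0.54), CALCOCO2 (-0.19) and CTSL (-0.21). RB1CC1 (-0.20) and NBR1 (-0.07) lost their call, and PIK3C3 (0.07), ATG3 (0.10) and LAMP2 (0.13) took the opposite sign without being called. The hydrolases remained at 6 called higher and 1 lower, with a median log2 fold change of 0.25. BECN1, ATG14, ATG12, GABARAP, GABARAPL2 and OPTN were called higher and TFE3 lower (-0.21, adjusted p = 0.0392) only in this fit among the fits on TPM values of all 6 libraries. The median log2 fold change of the members was 0.13 against -0.01 over all genes.

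**Figure D4:**
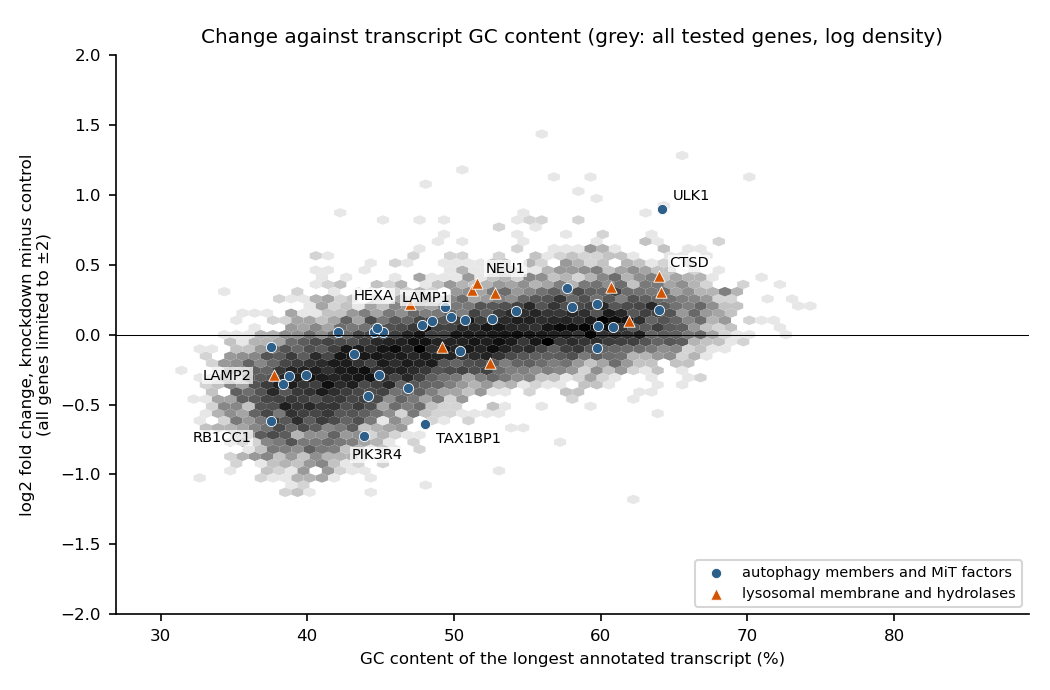
Log2 fold change against the GC content (%) of the longest annotated transcript for all tested genes with a match (grey, darker where more genes lie) and for the 42 members tested (blue circles for autophagy members and TFEB and TFE3, orange triangles for lysosomal members). The members follow the slope of all genes, with ULK1, CTSD, NEU1, LAMP1 and HEXA on its upper side and PIK3R4 and TAX1BP1 on its lower side.

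The number of members called depended on the fit. On the recovered reads, limma-voom called 3 members higher (ULK1, LAMP1 and CTSA) and 1 lower (PIK3R4), beside 1.29% and 1.73% of genes. With the replicate block it called 16 higher and 9 lower, beside 17.5% and 20.6%, and 19 of the 20 members called in the blocked fit on TPM values were called in the same direction, with CTSL the exception. Upper-quartile scaling called 3 higher and 0 lower, beside 0.422% and 0.443% of genes, with 18 members and 3605 of 13980 genes at an unadjusted p under 0.05. A minimum mean of 5 TPM called 2 higher and 1 lower, beside 0.81% and 2.32%. No filter on low values called 0 members, beside 0.0119% and 0.00396%, with 15 members and 4160 of 25278 genes at an unadjusted p under 0.05. Without knockdown replicate 1, limma called 4 higher and 7 lower, beside 4.64% and 19.8% of genes. Both libraries numbered 1 stood apart in several members, and without them 11 members were called higher and 12 lower, beside 9.68% and 25.3% of genes.

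The other genes of the pathway, 155 tested in 6 lists, were called in both directions. Without the block 0 were called higher and 1 lower, beside 0.25% and 0.629% of all genes. An unadjusted p under 0.05 was found for 38 of the 155, beside 3654 of all 13980 genes. With the replicate block 35 were called higher and 27 lower, beside 9.94% and 25% of all genes. These shares also stand behind the counts of each list with the block below. The balance moved with the fit, to 44 higher and 8 lower after GC correction with the block (11.9% and 13.7% of genes) and 56 and 18 with limma-voom and the block (17.5% and 20.6%). Their median log2 fold change was 0.02, and 0.07 after GC correction. Among 31 other autophagy machinery genes, 6 were called higher and 5 lower with the block. MAP1LC3A, an LC3 protein, was highest at 0.69, at 49.2, 68.3 and 70.0 TPM in knockdown and 27.6, 43.3 and 45.2 TPM in control libraries (adjusted p = 0.124, or 0.0044 with the block). VPS18, a tethering subunit of the HOPS complex, followed at 0.49. ATG2B, the paralog of ATG2A, was lowest at -0.76, at 0.927 to 1.64 TPM against 2.18 to 3.15 TPM. STX17, the fusion SNARE of autophagosomes, was at -0.54 and not called after GC correction with the block (-0.25, adjusted p = 0.116).

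Among 17 further selective receptors, 5 were called higher and 4 lower with the block. WDFY3 (ALFY), an adaptor for protein aggregates, was at 4.38, 3.44 and 3.69 TPM in knockdown and 8.09, 6.61 and 8.30 TPM in control libraries, a log2 fold change of -0.84 (SE 0.14, adjusted p = 0.0526, or 0.00586 with the block). CCPG1, a receptor of the endoplasmic reticulum, was at -0.74, and CALCOCO1 and STBD1 were at 0.42 and 0.35. The groups of CCPG1 and CALCOCO1 overlapped (adjusted p = 0.154 and 0.418 without the block). CCPG1 was not called after GC correction with the block (-0.32, adjusted p = 0.0623). Of 37 other hydrolases and activators, 10 were called higher and 5 lower, with a median of 0.09. SMPD1 (acid sphingomyelinase) and the phospholipase PLA2G15 were at 0.41 each, while CTSO (-0.57) and the acid ceramidase ASAH1 (-0.34) were lowest. After removal of the GC trend with the block, 11 of these hydrolases were called higher and 0 lower, with 26 not called, beside 11.9% higher and 13.7% lower of all genes. CTSO was then at -0.19 and ASAH1 at 0.08.

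The vacuolar ATPase, the proton pump that acidifies the lysosome, had 5 of 17 subunits called higher and 4 lower with the block. ATP6V1A, its catalytic subunit, was the only gene of the 6 lists called without the block. It was at 24.9, 19.2 and 19.1 TPM in knockdown and 38.6, 34.8 and 37.1 TPM in control libraries, a log2 fold change of -0.79 (SE 0.12, adjusted p = 0.0495, or 0.00465 with the block). ATP6V1C1 was at -0.41, with overlapping groups, and at -0.02 after GC correction with the block, not called (adjusted p = 0.857). ATP6V0D1 and ATP6V0E1, of the membrane sector, were at 0.30 and 0.22. Of 24 other membrane and sorting genes, 4 were called higher and 5 lower. The tetraspanin CD63 was at 925 to 993 TPM against 779 to 799 TPM (log2 fold change 0.27) and IGF2R, a mannose 6-phosphate receptor, at 0.24, whereas GNPTAB, which makes the mannose 6-phosphate tag, was at -0.67 and OSTM1 at -0.49. The groups of OSTM1 overlapped, and after GC correction with the block it was at -0.06 and not called (adjusted p = 0.583). Of 29 genes of MTORC1 and AMPK control, 5 were called higher and 4 lower. DEPTOR, an inhibitor of MTOR, and SESN2, an inhibitor of MTORC1, were at 0.50 and 0.46. Their groups overlapped, and they were called only with the block (adjusted p = 0.45 and 0.279 without it). The folliculin partners FNIP1 and FNIP2 were at -0.77 and -0.64, and FNIP2 was not called after GC correction with the block (adjusted p = 0.051).

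**Figure D5:**
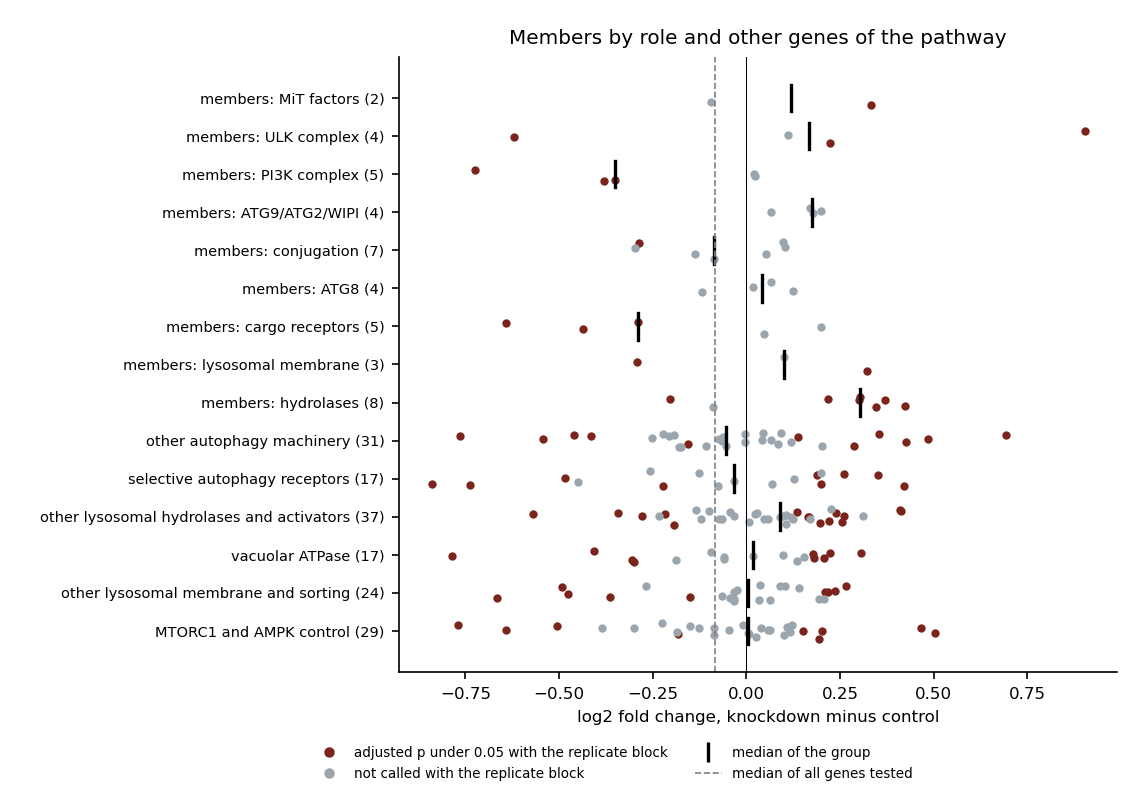
Log2 fold change of each tested gene in the 9 role groups of members and in 6 lists of other pathway genes, with the number tested in brackets, dark red points where the adjusted p was under 0.05 with the replicate block, black bars for medians and a dashed line for the median of all genes tested (-0.08). The member hydrolases have the highest median (0.30), the PI3K complex the lowest (-0.35), and the 6 other lists have medians between -0.06 and 0.09.

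The circular RNA was studied together with the microRNA miR-345-5p, whose mature sequence is printed with its seed (bases 2 to 8) in capitals.
hsa-miR-345-5p (chr14:100307876-100307897, plus strand, RefSeq on GRCh38.p14): gCUGACUCcuaguccagggcuc
The letters GAGTCAG, which pair with this seed, occurred in the longest transcript of 11 of 42 members (26.2%) and of 24.8% of 12953 genes. The median log2 fold change was 0.05 in members with the letters and 0.07 in members without them, and -0.10 and -0.09 over all genes. Among the members called with the replicate block, the letters were present in HEXA, CTSB, CTSL, RB1CC1 and UVRAG. They were absent from the others called, among them ULK1, PIK3R4, TAX1BP1 and CTSD, so both directions occurred with and without the letters. TFE3, ATG14, ATG4B, ATG16L1, OPTN and MCOLN1 also held them and were not called with the block.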

How the data were processed

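PolyA-selected RNA of HCCLM3-SR cells was sequenced in 6 libraries, grouped as knockdown and control by the sample labels, which do not say whether the replicates are separate cultures, so p-values may measure technical spread. The authors deposited TPM values per gene, and the submitters' processing notes name fastp 0.20.1, HISAT2 2.1.0, StringTie 2.0 and the build hg38, while the study names DESeq2 for its own test. Strand and multimapping settings are not given in the sources used here, so genes that overlap or have close copies are uncertain.

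The test was the moderated test of limma 3.58.1 in R 4.3.3, with a trend of variance against level, on log2(TPM + 1) of genes whose mean reached 1 TPM, and p-values were adjusted by Benjamini-Hochberg over all 13980 of them. A gene was called at an adjusted p under 0.05. Fold changes are on this log2 scale, which understates those of low genes. The main fit has no block, as the study names none. Replicate numbers come from the sample titles, which do not say whether same-numbered libraries share a culture, day or batch. Deviations of same-numbered libraries from their group means correlated at 0.56, 0.343 and 0.362 for replicates 1, 2 and 3. Correlations between libraries of different numbers were not computed. On this ground alone the libraries were taken as paired, and blocked values stand beside the main ones. On simulated data with known changes, 13.5% of the calls of the blocked fit were false without a replicate effect and 16.5% with one (SD 0.3). For the fit without the block these shares were 7.5% and 1%. The blocked shares were the larger, and all but the 1% exceeded the nominal rate. With 3 libraries against 3, an exact permutation test of a single gene cannot give a p under 0.1, so overlap of the groups is given in its place.

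TPM values hold no depth. A gene's TPM ratios between libraries were solved for the smallest whole reads, which succeeded for 99.91% of the 17285 genes above 0 in all 6 libraries (relative tolerance 3e-09). The knockdown libraries summed to 17506375, 23057377 and 21754307 reads in replicate order, and the controls to 17487649, 20231746 and 20537047. They are lower bounds and cover counting error only.

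GC content came from the longest GENCODE release 29 transcript on GRCh38, matched by symbol for 25655 deposited genes and by other RefSeq names for 540, with 12442 unmatched (92.7% of tested genes and every tested member matched). Each library's trend was removed by loess with a span of 0.5. Alternatives were the replicate block, upper-quartile scaling, other filters, a pseudocount of 0.1, the GC correction and each library left out. Limma-voom on recovered reads (at least 10 reads in 3 libraries) and leaving out both libraries numbered 1 were chosen after seeing the data.

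The members and lists were chosen with earlier results of these data known, so no p adjusted over the list alone and no list test is given. Values in every library are printed for TFEB and TFE3, members called without the block, the 5 highest and 5 lowest log2 fold changes, the 3 most abundant members and the largest change in each role group, and 4 genes (the 2 highest and 2 lowest) are named from each other list. Those of ATG101, and ranges of other members, were added after their values were seen. Python 3.11.15, pandas 2.3.3 and matplotlib 3.10.9 were used for the remaining steps.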

Additional observations from a re-analysis of the deposited data

How the results depend on the processing

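The number of members called rested on how the libraries were modelled. Against 1 member higher and 0 lower without the block, the replicate block gave 10 and 10. The GC correction gave 0 and 0, and the GC correction with the replicate block 14 and 6. Upper-quartile scaling gave 3 and 0, and a mean of at least 5 TPM 2 and 1 (0.81% and 2.32% of genes). No filter on low values gave 0 and 0, with 15 members and 4160 of 25278 genes at an unadjusted p under 0.05. Limma-voom on recovered reads gave 3 and 1, and limma-voom with the replicate block 16 and 9. Leaving out both libraries numbered 1 gave 11 and 12. Leaving out 1 library gave 0 to 4 higher and 0 to 7 lower. Calls were made only without knockdown replicate 1 (4 and 7, beside 4.64% and 19.8% of genes), and the other 5 omissions called 0 genes in all, with 9 to 13 members and 2161 to 2803 genes at an unadjusted p under 0.05. The median log2 fold change of the members was 0.06, and it was 0.13 under upper-quartile scaling and the GC correction, 0.16 with limma-voom, 0.15 with limma-voom and the block, 0.004 without both libraries numbered 1, and 0.04 to 0.09 when 1 library was left out. Over all genes, the split of 35 higher and 88 lower became 59 and 62 under upper-quartile scaling. The lower DCBLD2 value (-0.61) passed the test with the replicate block (adjusted p = 0.0139), with limma-voom and the block (-0.52), without both libraries numbered 1 (-0.77) and without knockdown replicate 1 (-0.95), in a range of -0.95 to -0.38 when 1 library was left out. The GC correction moved it to -0.28, not called with the block (adjusted p = 0.0503). The causes were not tested.

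Some members changed sign. Under the GC correction, with or without the block, PIK3C3 was at 0.065, ATG9A at -0.052, ATG3 at 0.10, ATG4B at -0.073, ATG5 at 0.11, ATG10 at 0.15, ATG12 at 0.34, LAMP2 at 0.13 and MCOLN1 at -0.035. With limma-voom TFE3 was at 0.0061 and GLA at 0.0022, and with the block TFE3 was at 0.0084, ATG12 at 0.0035 and GLA at 0.0099. Without both libraries numbered 1, BECN1 was at -0.066, ATG14 at -0.024, GABARAPL1 at -0.031, GABARAPL2 at -0.040 and OPTN at -0.016. When 1 library was left out, the ranges that crossed 0 were -0.16 to 0.0029 for TFE3, -0.087 to 0.10 for BECN1, -0.078 to 0.12 for ATG14, -0.012 to 0.16 for ATG9A, -0.20 to 0.015 for ATG12, -0.12 to 0.17 for GABARAPL1, -0.073 to 0.075 for GABARAPL2, -0.059 to 0.11 for OPTN and -0.32 to 0.060 for GLA. Of all these, only ATG12 after the GC correction with the block was called. At 17487649 to 23057377 reads, ULK2 had 10 to 36 reads a library. It was tested only without the filter on low values and with limma-voom, and was not called. With limma-voom its log2 fold change was -0.55 (adjusted p = 0.384), and -0.59 with the block (adjusted p = 0.134).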
